A study of Mus musculus with 16 samples.

Results

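The 41 genes described here encode the machinery that licenses, starts and carries out DNA replication, together with the enzymes that supply its nucleotides and the factors that rebuild chromatin behind the fork. They were taken by symbol from a list of replication genes, without a threshold on any measured value, and all 41 were found once among the 31053 features of the lung and MLN matrices and once among the 32285 genes of the medLN and MLN matrix. Every one of them had UMIs (unique molecular identifiers, 1 per captured RNA molecule) in all 12 samples. They were read over all cells of a sample and over the cells with at least 1 UMI of *Mki67*, a marker of cells in cycle, which are called Mki67+ here. All mice were IL-4eGFP reporter (4get) animals on a C57BL/6 background, in which cells licensed to express *Il4* fluoresce, so that the gate marks licensing and not IL-4 secretion, and all had been infected under the skin with 500 larvae of Nippostrongylus brasiliensis (Nb) 10 days before. Run 1 held CD4+ IL-4eGFP+ cells sorted from lung and mesenteric lymph node (MLN) of 2 mice aged 13 weeks, with 1 library for each organ and mouse (lung 1, lung 2, MLN 1 and MLN 2). The lungs were perfused but still contained some intravascular cells. Run 2 held CD4+ cells of the lung-draining mediastinal node (medLN) and the MLN of 2 other mice aged 10 weeks, labeled with 1 hashtag antibody for each organ and mouse and sorted into 1 IL-4eGFP+ and 1 IL-4eGFP- library. The sort gate and the library therefore cannot be told apart in run 2, whereas the organs shared a library.

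Replication starts where the origin recognition complex, *Cdc6* and *Cdt1* load the ring of *Mcm2* to *Mcm7* onto DNA in G1. At the entry into S phase cyclin E (*Ccne1*, *Ccne2*) and its kinase help *Mcm10*, *Cdc45* and the GINS subunits turn the ring into an active helicase, polymerases and primase copy the strands, the clamp *Pcna* is loaded by the RFC complex, and *Fen1* and *Lig1* join the lagging strand fragments. Most of these genes are textbook targets of E2F factors, which become free to activate them when the retinoblastoma protein is phosphorylated. Effector and follicular helper T cells arise through rapid division of few precursors in the draining nodes, whereas many of these transcripts are low in resting T cells.

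The kept cells gave 2798232 to 14512767 UMIs per sample in run 1 (416 to 2462 cells, median 4971 to 6910 UMIs per cell) and 7546083 to 10636927 in run 2 (1992 to 2249 cells, median 3166 to 3667). CPM below are a gene's UMIs given as a rate over all UMIs of the cells named (counts per 1e6). CD4 T and Th2 markers (6 genes) summed to 2206 to 3716 CPM in every sample, and the *Il4* transcript had no UMI in the IL-4eGFP- cells of either MLN sample. Markers of other cells were low but not evenly spread. Erythroid markers (5 genes) reached at most 1.22 CPM and those of CD8 T cells (2 genes) 6.25 to 23.9 CPM. Markers of epithelial cells (6 genes) lay at 4.31 to 11.5 CPM. Markers of B cells (6 genes) were lower in lung, at 93.4 and 126 CPM, than in MLN of run 1, at 238 and 263 CPM, with *Ms4a1* at 0 in all 4 samples, and reached 170 to 378 CPM in IL-4eGFP+ against 202 to 239 CPM in IL-4eGFP- samples of run 2. Markers of myeloid cells (8 genes) had 2.50 and 2.94 CPM in lung against 24.2 and 36.2 CPM in MLN, and 27.5 to 101 CPM in IL-4eGFP+ against 5.43 to 24.2 CPM in IL-4eGFP- samples. The part of these cells in the organ and gate differences was not tested. Of the run 2 barcodes that passed the filters, before hashtag doublets and negatives were removed, 147 occurred in both libraries. Of the barcodes kept in run 1, 0 to 8 occurred in any pair of libraries.

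Promoters are shown for 6 of the members named in the results below, each of which holds a match to the E2F words given here. Promoter windows of RefSeq on GRCm38.p6 (250 bases before to 50 after a start) were found for 34 of the 41 genes. The E2F words TTTCCCGC, TTTCGCGC, TTTGCCGC and TTTGGCGC were searched on both strands and may overlap each other. A match was held by 14 of the 34 genes (41.2%), by 19 of 50 matched genes of a second list of replication and repair factors (38.0%), by 1 of 18 G2/M genes (5.56%) and by 704 of all 27025 genes with a window (2.6%). The CHR word TTTGAA, known from promoters of mitotic genes, was held by 13 of 18 G2/M genes (72.2%), 22.0% of the second list, 4 of 34 members (11.8%) and 20.2% of all genes. CCAAT or its complement was found in 58.8% of the members, 88.9% of the G2/M genes and 41.1% of all genes. Base composition differed as well, since the median GC content of the windows was 61.3% for the members, 57.8% for the G2/M genes and 52.7% for all. These shares describe letters in a window and were not tested.

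The sequences run 5′ to 3′ in the direction of the gene, from 250 bases before to 30 after the start, with the E2F words in capitals.
Mcm5 (chr8:75109259-75109538, plus strand): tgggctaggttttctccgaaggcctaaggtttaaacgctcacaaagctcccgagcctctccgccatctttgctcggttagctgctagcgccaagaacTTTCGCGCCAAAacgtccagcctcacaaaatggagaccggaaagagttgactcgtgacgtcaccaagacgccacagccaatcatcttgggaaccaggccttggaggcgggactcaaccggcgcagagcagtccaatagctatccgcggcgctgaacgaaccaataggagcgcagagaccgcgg
Mcm6 (chr1:128359676-128359955, minus strand): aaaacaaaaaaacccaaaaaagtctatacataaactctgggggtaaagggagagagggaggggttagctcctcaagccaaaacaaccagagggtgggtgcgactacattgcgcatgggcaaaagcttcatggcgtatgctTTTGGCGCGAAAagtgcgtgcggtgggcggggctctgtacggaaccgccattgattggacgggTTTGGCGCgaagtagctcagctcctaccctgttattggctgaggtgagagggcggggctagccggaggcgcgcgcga
Cdc6 (chr11:98907901-98908180, plus strand): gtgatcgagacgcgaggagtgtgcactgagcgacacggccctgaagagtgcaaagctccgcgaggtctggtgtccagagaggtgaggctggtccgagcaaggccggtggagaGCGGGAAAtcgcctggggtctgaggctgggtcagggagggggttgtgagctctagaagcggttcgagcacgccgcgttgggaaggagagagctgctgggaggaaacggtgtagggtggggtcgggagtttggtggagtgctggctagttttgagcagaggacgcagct
Clspn (chr4:126556730-126557009, plus strand): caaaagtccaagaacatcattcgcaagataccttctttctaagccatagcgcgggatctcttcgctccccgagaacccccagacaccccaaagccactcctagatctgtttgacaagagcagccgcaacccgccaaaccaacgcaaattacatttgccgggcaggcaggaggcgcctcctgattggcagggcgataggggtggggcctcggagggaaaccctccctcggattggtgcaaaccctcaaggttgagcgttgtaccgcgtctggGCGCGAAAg
Pola1 (chrX:93632126-93632405, minus strand): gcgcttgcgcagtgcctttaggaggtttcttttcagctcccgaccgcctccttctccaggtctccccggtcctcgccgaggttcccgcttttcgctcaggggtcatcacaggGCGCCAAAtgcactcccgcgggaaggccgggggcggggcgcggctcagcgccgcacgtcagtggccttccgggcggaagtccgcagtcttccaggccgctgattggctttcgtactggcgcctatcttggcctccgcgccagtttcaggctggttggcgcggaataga
Pclaf (chr9:65890073-65890352, plus strand): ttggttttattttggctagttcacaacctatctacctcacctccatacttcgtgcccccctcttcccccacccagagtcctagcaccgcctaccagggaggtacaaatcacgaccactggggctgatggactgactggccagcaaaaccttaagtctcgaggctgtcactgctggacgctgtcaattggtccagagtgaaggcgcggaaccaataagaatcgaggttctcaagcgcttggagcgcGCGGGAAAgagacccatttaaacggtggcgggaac
Gene spans given below follow the annotation and can begin elsewhere than these RefSeq starts. In *Mcm5* the words began at -153 and -149 and overlapped by 4 bases, and in *Mcm6* they began at -110, -106 and -47, the first 2 of which also overlapped. *Cdc6* and *Pola1* each had 1 word at -138, *Pclaf* had 1 at -5 across the start and *Clspn* had 1 at 22 after it. *Mcm10*, *Rrm2*, *Pcna* and *Tyms* held none of the words in their windows.

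Mki67+ cells were more frequent in lung than in MLN within run 1 and far more frequent among IL-4eGFP+ than IL-4eGFP- node cells. The lung 1 sample had a share of 13.8% (exact Clopper-Pearson 95% interval 11.8 to 16.0) and the lung 2 sample 14.2% (11.0 to 17.9). MLN 1 had 7.31% (interval from 6.31 to 8.41) and MLN 2 had 6.63% (interval from 4.96 to 8.65). The organs did not overlap, but 2 against 2 samples cannot give a p below 0.333 in an exact permutation test, which was the value found. MLN IL-4eGFP+ cells of the other mice in run 2 had 12.9% (MLN 1) and 16.3% (MLN 2). The MLN share thus differed between the runs. In run 2 it was below both lung samples in MLN 1 and above both in MLN 2. A full T-cell receptor was required of run 1 cells only. Without that criterion lung 1 had 11.0% and lung 2 had 12.7%, below both MLN samples of run 2. With cells thinned to 2000 UMIs, lung 1 and lung 2 (criterion kept) had 6.09% and 8.33%. MLN 1 and MLN 2 IL-4eGFP+ cells of run 2 then had 8.82% and 11.0%. What sets the runs apart was not tested. In run 2 the share was 14.5% ± 1.42 (SD, n = 4) in the IL-4eGFP+ samples and 1.92% ± 0.453 (n = 4) in the IL-4eGFP- samples (two-sided exact permutation test, p = 0.0286, the smallest it allows). This test took the samples as independent, although they came from 2 mice and each organ of a mouse occurred in both gates. It did not use that pairing. At an equal depth of 2000 UMIs per cell the shares were 10.3% ± 1.03 and 1.32% ± 0.266. In run 1 they were 7.21% ± 1.59 in lung and 2.83% ± 0.575 in MLN (n = 2 each) at that depth. No sorted population was made up only of cells that should lack *Mki67*, so the share that free RNA gives was not measured. These intervals and shares cover counting error only, and the same holds for all intervals here.

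In every sample the replication genes were concentrated in Mki67+ cells. Of all UMIs of the 41 genes, Mki67+ cells held 60.5% and 61.8% in the lung samples, 54.1% and 49.5% in MLN 1 and MLN 2, 75.2% to 81.4% in IL-4eGFP+ node samples and 26.3% to 38.8% in the IL-4eGFP- samples. Of the UMIs of all genes they held 13.9% to 24.1% in run 1, 32.5% to 38.9% and 3.93% to 6.62%. The summed level of the members in Mki67+ cells was 5.09 to 8.94 times that in Mki67- cells, and 4.22 to 7.60 times after thinning. Mki67- cells had 673 to 1168 CPM of these genes. Mki67+ cells were also the larger libraries, with a median of 7935 to 10855 UMIs against 2945 to 6649 in Mki67- cells. Since *Mki67* chose the cells, these values are descriptions without a test.

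The members differed widely in how far they were restricted to Mki67+ cells. Over the 8 IL-4eGFP+ samples, *Pclaf*, a partner of the clamp (ENSMUSG00000040204, chromosome 9 from 65890237 to 65903266), had a median fold of 58.3 between Mki67+ and Mki67- cells (range 38.0 to 170), and Mki67+ cells held 92.3% to 97.5% of its UMIs. *Rrm2*, the S phase subunit of ribonucleotide reductase, followed with 51.7-fold (28.7 to 112). *Clspn* (ENSMUSG00000042489, chromosome 4 from 126556935 to 126593903), which carries the replication checkpoint signal to its kinase, had 38.7-fold (17.8 to 71.7). *Mcm10* had 32.5-fold in the 4 samples in which Mki67- cells had more than 3 of its UMIs, and *Cdc6* 23.0-fold in 7 samples (8.03 to 49.6). Of the 8 licensing and helicase activating factors 6 had over 8-fold, the others being *Cdt1* with 3.59-fold and *Gins3* with 3.17-fold.

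At the lower end were the clamp loader subunit *Rfc2* with 2.34-fold (2.11 to 2.75), the polymerase alpha subunit *Pola2* with 2.72-fold and the single strand binding *Rpa2* with 2.78-fold. The *E2f1* transcript, which encodes one of the activating E2F factors, had 2.58-fold with a range from 0.676 to 4.51, so that it was not higher in Mki67+ cells in every sample. Its mean log2 fold was 0.34 in run 1 and 1.93 in the IL-4eGFP+ samples of run 2. In the MCM ring the subunits did not move alike, since *Mcm5* had 7.29-fold (5.07 to 9.13), *Mcm3* 5.72-fold (3.09 to 6.22) and *Mcm7* 4.86-fold (4.27 to 6.20), whereas *Mcm2*, *Mcm4* and *Mcm6* had 3.77-fold (2.33 to 4.70), 3.33-fold (2.45 to 3.58) and 3.27-fold (2.75 to 3.75). For *Mcm6* Mki67+ cells held 34.5% to 65.4% of the UMIs. The range of *Mcm5* did not overlap those of *Mcm2*, *Mcm4* and *Mcm6*, while that of *Mcm3* did.

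The order of the 41 genes was largely alike in both runs, which had other mice and libraries. Across genes, the mean log2 fold of the run 1 samples and that of the IL-4eGFP+ samples of run 2 had a Pearson r of 0.94 and a Spearman rho of 0.93 (n = 41 genes, which are not independent replicates). The points share the split by *Mki67* and, for low genes, few UMIs in Mki67- cells.

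Part of the Mki67+ cells had few of the members detected. Under 5 of the 41 genes were detected in 28.0% to 32.9% of the Mki67+ cells of run 1, in 21.8% to 26.9% of those in IL-4eGFP+ node samples and in 19.4% to 34.6% of those in IL-4eGFP- samples. These cells were shallower than the other Mki67+ cells, with a median of 3204 to 6699 UMIs, and held at most 1.08% of the UMIs of the members. In most samples their median was still above that of all cells, as in MLN 2 (6537 against 4971 UMIs). It was below in lung 1 (6699 against 6910) and medLN 2 IL-4eGFP- (3204 against 3268). At the other end, 20 or more of the genes were detected in 33.9% to 42.2% of the Mki67+ cells in run 1, in 48.8% to 57.0% in IL-4eGFP+ and in 42.9% to 51.9% in IL-4eGFP- node samples, at a median of 10270 to 18030 UMIs. These deep cells alone held 46.5% to 54.8% of all member UMIs of run 1 and 69.4% to 76.9% in IL-4eGFP+ node cells. Depth and the number of detected genes moved together, and the part of depth in these classes was not tested.

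**Figure D1:**
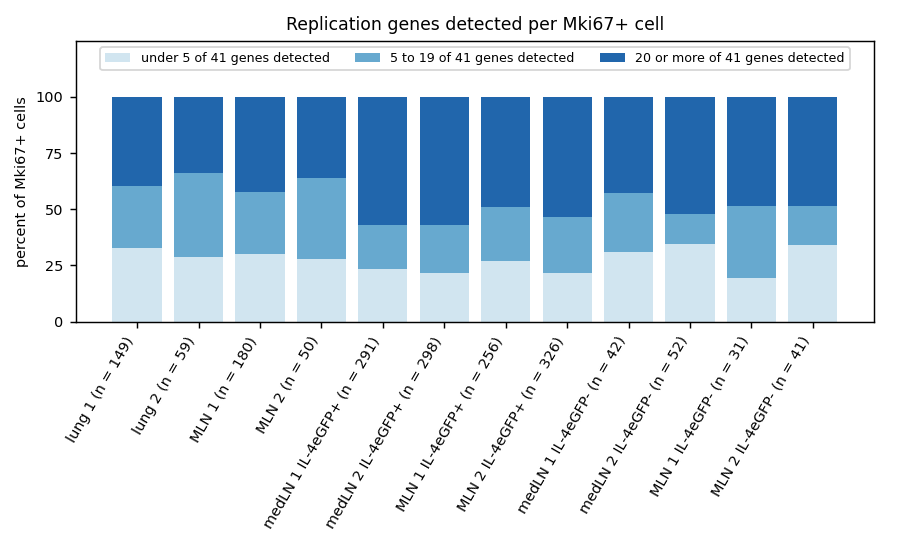
Percent of Mki67+ cells in each sample (1 bar per sample, n = number of Mki67+ cells) with under 5, 5 to 19 and 20 or more of the 41 replication genes detected. In run 2 IL-4eGFP+ samples the darkest part covers 48.8% to 57.0% of the cells, in run 1 samples 33.9% to 42.2%.

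**Figure D2:**
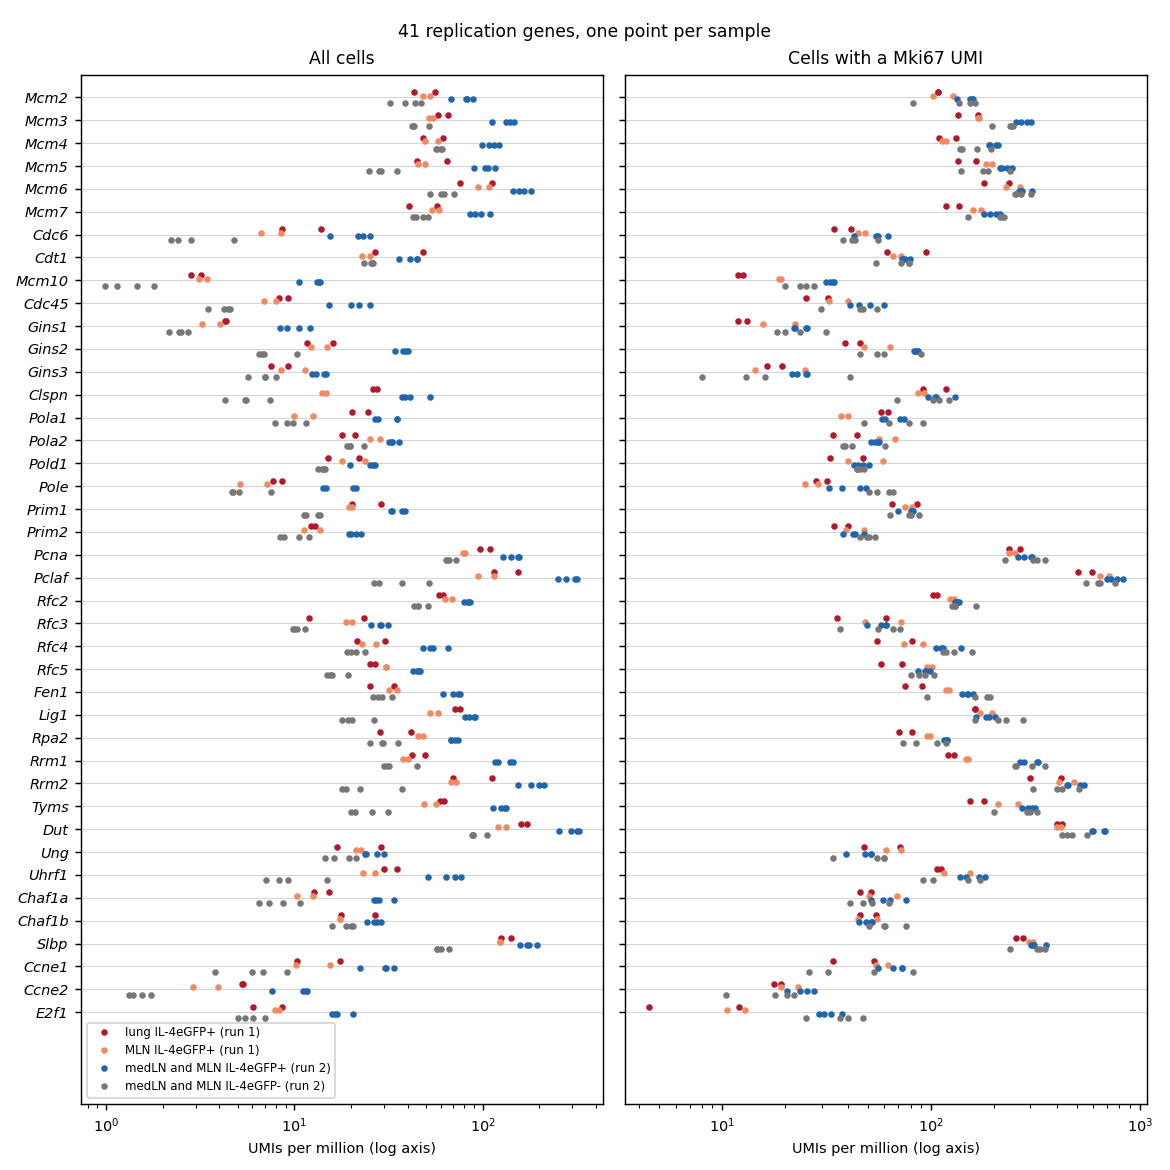
CPM (log axis) of each of the 41 genes over all cells (left) and over Mki67+ cells (right), with 1 point per sample colored by organ and gate. Over all cells the IL-4eGFP+ node samples (blue) lie to the right of the IL-4eGFP- samples (gray) for each gene. How often this held for other genes was not counted, and 62.8% of all genes tested were called between the gates. In Mki67+ cells the colors of run 2 mix, apart from genes such as *Dut* and *Pole*.

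Lung and MLN cells of the same mice were compared, since the study set IL-4eGFP+ cells of a peripheral organ against those of a lymph node. Over all cells, the summed level was 1520 and 1890 CPM in lung 1 and 2 and 1511 and 1525 CPM in MLN 1 and 2, so lung 1 was close to both MLN samples although its share of Mki67+ cells was higher. Of the 41 genes, all of which could be tested, 9 were higher and 0 lower in lung (edgeR quasi-likelihood test, Benjamini-Hochberg adjusted p under 0.05). This share of 22.0% stood beside 31.0% of all 10590 genes called in either direction and 17.0% called higher in lung, and was thus near the background. The median log2 fold change of the members was 0.28, against -0.01 over all genes. With the mouse as replicate block 12 members were called and with DESeq2 4. Leaving out 1 library gave 4 to 12 calls, with 4 without MLN 2 and 5 without MLN 1.

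Expression rose most for *Pola1*, the catalytic subunit of polymerase alpha that lays down the first DNA on each primer (ENSMUSG00000006678, chromosome X from 93304767 to 93632155). It had 20.2 and 24.7 CPM in lung and 9.99 and 12.5 CPM in MLN, a log2 fold change of 1.15 (SE 0.185, edgeR adjusted p = 0.0015). *Clspn* had 27.6 and 26.1 CPM in lung and 14.7 and 14.1 in MLN (log2 fold change 1.05, SE 0.158, edgeR adjusted p = 0.001). Both genes were called under all 11 alternatives. The organs did not overlap for either, but they were chosen by their change and the share of all genes without overlap was not counted. *Cdt1*, which loads the MCM ring, had 26.9 and 48.2 CPM in lung and 25.4 and 23.0 in MLN (log2 fold change 0.67, SE 0.208, edgeR adjusted p = 0.036). Here lung 2 alone stood high, and the call was lost without lung 2, without MLN 2 and with DESeq2.

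Genes of the lagging strand, chromatin and nucleotide groups made up most of the other calls. The DNA ligase *Lig1* had 75.9 and 71.1 CPM in lung and 52.8 and 58.1 in MLN, with a log2 fold change of 0.56 (SE 0.127, edgeR adjusted p = 0.0089). *Uhrf1*, which hands DNA methylation on to the new strand, had 29.97 and 35.02 CPM in lung and 23.3 and 26.8 in MLN (log2 fold change 0.51, SE 0.141, edgeR adjusted p = 0.022). *Dut*, which keeps uracil out of DNA, *Pcna*, *Pclaf* and *Mcm3* were the other 4, with log2 fold changes of 0.51, 0.50, 0.46 and 0.35. Apart from *Pola1* and *Clspn*, each of the called genes lost its call under 1 to 8 of the 11 alternatives, *Mcm3* without any 1 of the 4 libraries. *Mcm6* changed least among all members, with 76.2 and 112 CPM in lung and 94.4 and 108 in MLN (log2 fold change -0.01, SE 0.146), where the spread within lung exceeded the difference. The 11 members with a log2 fold change below 0 reached -0.34 for *Pola2* and -0.33 for *Rpa2*, which did not pass.

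Within Mki67+ cells the members lay on the other side. The summed level was 4281 and 4850 CPM in lung and 5196 and 5419 in MLN, and 34 of the 41 genes had a log2 fold change below 0, with a median of -0.19 against -0.01 over all genes tested. Only 1 member passed, where 13% of the 8258 genes tested were called. This was again *Pola1*, with 57.5 and 62.4 CPM in lung and 37.2 and 40.1 in MLN (log2 fold change 0.71, SE 0.228, edgeR adjusted p = 0.045), opposite to most other members. The pattern of lower values reached -0.61 for *Pola2* (edgeR adjusted p = 0.11), -0.49 for *Fen1* (edgeR adjusted p = 0.0805) and -0.43 for *Tyms*. *Tyms*, which makes thymidylate, had 153 and 180 CPM in lung and 211 and 261 in MLN. With the mouse as replicate block 2 members passed, *Pola1* and *Tyms* (edgeR adjusted p = 0.047 for *Tyms*), and DESeq2 called 0, as did edgeR without lung 1, without MLN 1 or without MLN 2. The direction of the median did not hold at equal depth, since it was 0.15 over the 18 members that could still be tested when cells were thinned to 2000 UMIs before *Mki67* was read. *Chaf1b*, a subunit of the histone chaperone CAF-1, differed least (log2 fold change -0.00072, SE 0.213). Whether the change in all cells differed from that in Mki67+ cells was not tested.

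**Figure D3:**
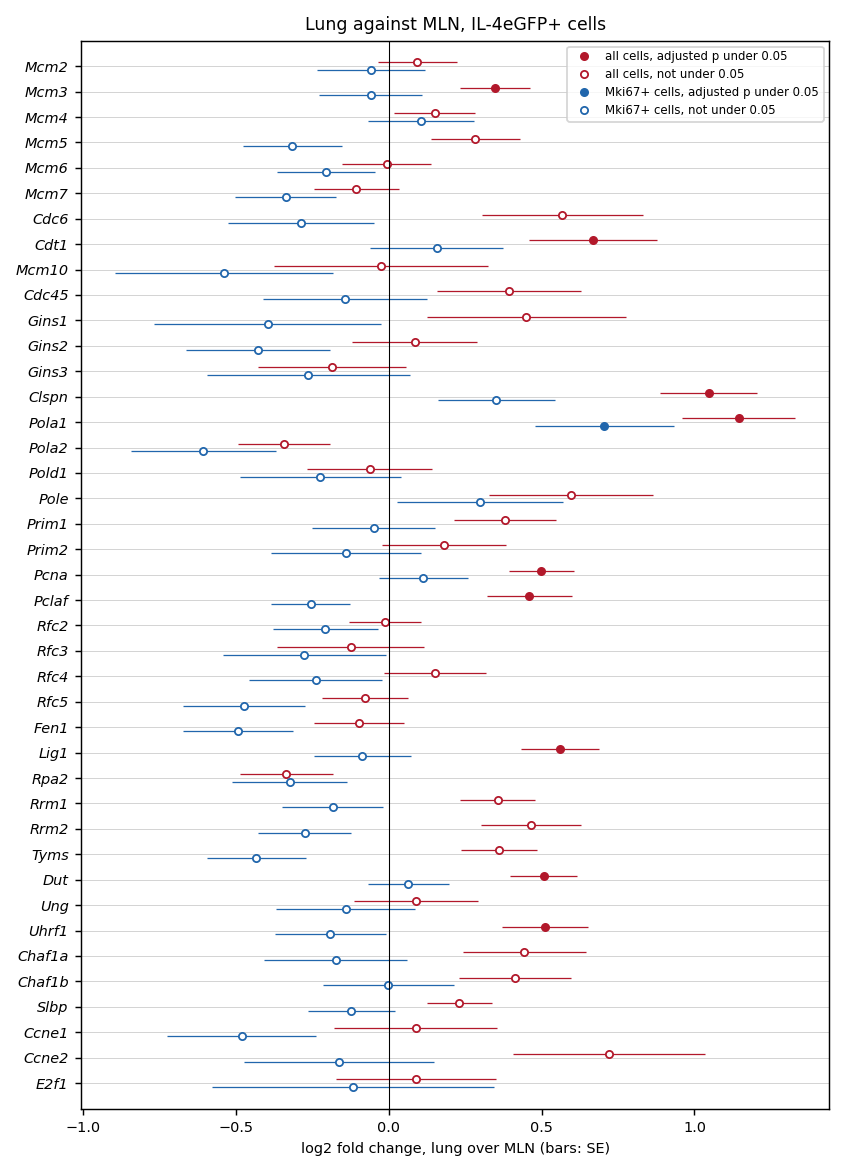
Log2 fold change (lung over MLN, bars show the SE) of the 41 genes over all cells (red) and over Mki67+ cells (blue), n = 2 samples per organ. Filled points passed an edgeR adjusted p of 0.05, and *Pola1* is filled in both series at 1.15 and 0.71.

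In the nodes, IL-4eGFP+ and IL-4eGFP- cells were compared with the organ as covariate, over 4 hashtag samples each. All 41 members were higher in IL-4eGFP+ cells (edgeR adjusted p under 0.05). Differences were common, since 62.8% of the 11281 genes tested were called in either direction and 31.3% were called higher. The summed level was 2676 to 3322 CPM in IL-4eGFP+ and 916 to 1150 CPM in IL-4eGFP- samples. The median log2 fold change of the members was 1.36, against -0.02 over all genes. At equal depth, where each cell counts alike, 33 members were called and the median was 0.87. *Mcm4*, *Mcm7*, *Cdt1*, *Pola2*, *Pold1* and *Prim2* were then no longer called, and *Ung* and *Chaf1b* turned to -0.08 and -0.24.

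By role, the summed level was 599 to 764 CPM in IL-4eGFP+ and 253 to 314 CPM in IL-4eGFP- samples for the MCM helicase, 170 to 221 against 51.7 to 62.4 CPM for licensing and helicase activation, and 146 to 174 against 65.2 to 82.6 CPM for polymerases and primase. It was 791 to 939 against 256 to 323 CPM for the clamp, clamp loader and lagging strand genes, 663 to 833 against 172 to 239 CPM for nucleotide supply, 261 to 335 against 89.7 to 113 CPM for chromatin and histone supply, and 45.7 to 65.9 against 10.7 to 17.5 CPM for the G1/S genes. In none of the 7 groups did the gates overlap. How often this held for other genes was not counted, and 62.8% of all genes tested were called between the gates.

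Several factors of origin licensing and firing had large differences, but *Cdt1* (log2 fold change 0.52) and *Gins3* (0.78) of the same group had small ones. *Mcm10*, which helps to activate the helicase (ENSMUSG00000026669, chromosome 2 from 4989714 to 5012791), had 13.3, 13.7, 10.5 and 13.5 CPM in the IL-4eGFP+ samples medLN 1, medLN 2, MLN 1 and MLN 2 and 1.81, 1.46, 0.991 and 1.14 CPM in the IL-4eGFP- samples (log2 fold change 3.04, SE 0.174, edgeR adjusted p = 2.1e-08). *Cdc6* had 21.9, 25.2, 15.4 and 23.1 CPM against 2.84, 4.77, 2.23 and 2.41 (log2 fold change 2.62, SE 0.189, edgeR adjusted p = 1.6e-07). *Clspn* had 52.6, 41.2, 37.3 and 38.5 CPM against 4.27, 7.42, 5.45 and 5.58 (log2 fold change 2.70, SE 0.14, edgeR adjusted p = 9.2e-09). The IL-4eGFP- values of *Mcm10* rested on few UMIs. Their counting error may exceed its SE, which was derived from the test statistic. In none of these genes did the gates overlap, and the share of all genes without overlap was not counted.

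Among the clamp and nucleotide genes, *Pclaf* had 308, 319, 250 and 278 CPM in IL-4eGFP+ and 37.5, 52.1, 26.4 and 28.2 in IL-4eGFP- samples (log2 fold change 2.83, SE 0.101, edgeR adjusted p = 4.9e-10). *Rrm2* had 211, 198, 154 and 180 CPM against 18.9, 37.4, 17.8 and 22.4 (log2 fold change 2.76, SE 0.143, edgeR adjusted p = 9.2e-09). The clamp *Pcna* itself differed less, with 129 to 156 CPM against 63.8 to 71.8 (log2 fold change 0.92, SE 0.0574). *Slbp*, which binds the end of histone transcripts, had 158 to 195 CPM against 57.2 to 66.3 (log2 fold change 1.34). *Chaf1b* had the lowest difference, with 24.2 to 29.0 CPM against 15.9 to 20.5 (log2 fold change 0.32, SE 0.0884, edgeR adjusted p = 0.0076). *Ung*, which removes uracil from DNA, had 23.9 to 30.01 CPM against 14.6 to 21.2 (log2 fold change 0.35, SE 0.122, edgeR adjusted p = 0.023) and was lost in 3 of the 8 fits that left out 1 sample.

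Genes that were most restricted to Mki67+ cells in run 1 were also those with the greatest gate difference in run 2. The 15 members with a mean fold over 8 between Mki67+ and Mki67- cells in run 1 had gate log2 fold changes of 1.30 to 3.04 (median 2.16), the 15 between 4 and 8 had 0.32 to 1.85 (median 1.26), and the 11 under 4 had 0.51 to 1.36 (median 0.78). Across the 41 genes Pearson's r was 0.83 and Spearman's rho 0.80, with genes that share cells and libraries on each axis but no sample between the axes. The measures are linked all the same, since the gate values were read over all cells. Mki67+ cells made up 14.5% of the IL-4eGFP+ and 1.92% of the IL-4eGFP- samples on average. How far this share sets the gate differences was not tested.

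**Figure D4:**
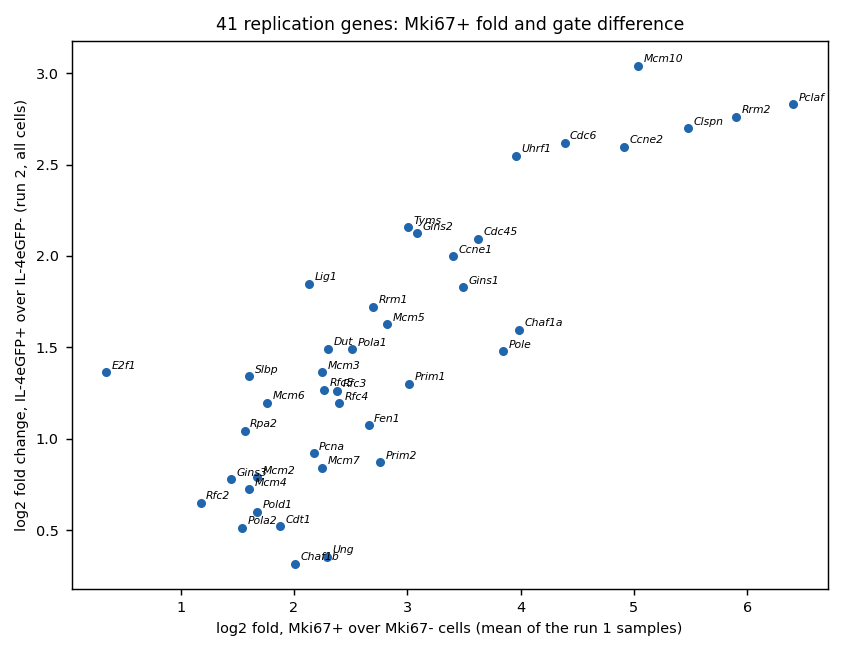
Each point is 1 of the 41 genes. The x axis gives the mean log2 fold of Mki67+ over Mki67- cells in run 1. It covers the samples in which Mki67- cells had more than 3 UMIs of the gene, which were fewer than 4 for *Mcm10*, *Ccne2* and *Cdc6*. The y axis gives the log2 fold change of IL-4eGFP+ over IL-4eGFP- node cells of run 2. The points rise together (Pearson r 0.83), with *Pclaf*, *Rrm2*, *Clspn* and *Mcm10* at the upper right.

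Within Mki67+ cells the gates were close. The summed level was 6092 to 6965 CPM in IL-4eGFP+ and 4973 to 6737 CPM in IL-4eGFP- samples, which rested on only 31 to 52 cells each, and the median log2 fold change of the members was 0.04. Of the 41 genes 1 was higher and 1 lower, where 11.2% of 9098 genes were called. *Dut* had 679, 685, 593 and 598 CPM in the IL-4eGFP+ samples medLN 1, medLN 2, MLN 1 and MLN 2 and 451, 561, 475 and 424 CPM in the IL-4eGFP- samples (log2 fold change 0.36, SE 0.073, edgeR adjusted p = 0.0039). *Pole*, the catalytic subunit of the leading strand polymerase, had 48.8, 45.9, 37.7 and 32.6 CPM against 50.3, 66.1, 63.0 and 54.9 (log2 fold change -0.55, SE 0.164, edgeR adjusted p = 0.04). Neither gene overlapped between the gates, but both were chosen by the test and the share of all genes without overlap was not counted. *Dut* was called under 13 of 14 alternatives and not at equal depth, where its log2 fold change was 0.10, and *Pole* under 3 of the 13 in which it was tested. With the hashtag sample as replicate block only *Dut* passed (*Pole* had an edgeR adjusted p of 0.072). The count of members was also 1 without any 1 of medLN 2 IL-4eGFP+, either MLN IL-4eGFP+ sample or either MLN IL-4eGFP- sample. *Rfc5* differed least, with a log2 fold change of -0.01 (SE 0.128), and *Mcm10*, the first in all cells, had 0.42 (SE 0.195, edgeR adjusted p = 0.24).

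**Figure D5:**
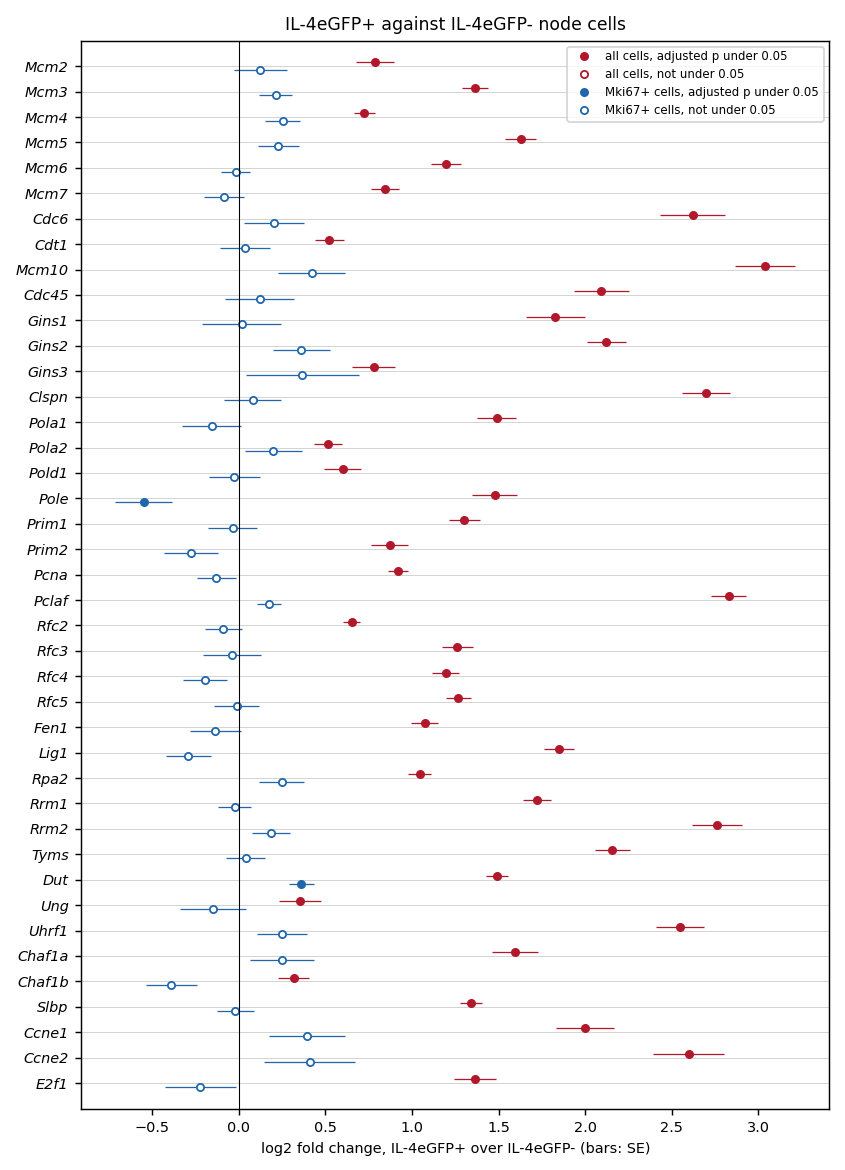
Log2 fold change (IL-4eGFP+ over IL-4eGFP-, bars show the SE) of the 41 genes over all node cells (red) and over Mki67+ node cells (blue), n = 4 hashtag samples per gate. All red points are filled and lie between 0.32 and 3.04, while in blue only *Dut* (0.36) and *Pole* (-0.55) are filled.

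The lung-draining medLN and the gut-draining MLN were compared within each gate, with 2 samples per organ. In IL-4eGFP+ cells 0 of 41 members passed in edgeR and 0 in DESeq2, where 1.28% of 11265 genes were called. An unadjusted p under 0.05 in edgeR was found for 16 members and for 1393 of the 11265 genes. Of the 41 log2 fold changes, 40 were above 0, as were 5640 of those of the 11265 genes. The median of the members was 0.18 against 0.00021 over all genes. The summed level was 3193 and 3322 CPM in medLN and 2676 and 2986 CPM in MLN. *Pole* came closest, with 21.2 and 20.4 CPM in medLN and 14.7 and 14.2 in MLN (log2 fold change 0.52, SE 0.106, edgeR adjusted p = 0.067). *Rrm1*, the large subunit of ribonucleotide reductase, had 140 and 145 CPM against 116 and 120 (log2 fold change 0.26, SE 0.0622, edgeR adjusted p = 0.11). *Rfc2* differed least, with a log2 fold change of 0.03 (SE 0.0665). Without the IL-4eGFP+ sample of MLN 2, 1 member was called.

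In Mki67+ IL-4eGFP+ cells the picture was similar, with 0 of 41 members called (11 at an unadjusted p under 0.05 in edgeR, 0 in DESeq2), 39 log2 fold changes above 0 and a median of 0.16, where 0.943% of 9859 genes were called. Of the 9859 genes, 955 had an unadjusted p under 0.05 in edgeR and 4833 had a log2 fold change above 0. *Gins1* differed least (log2 fold change -0.01, SE 0.158). In IL-4eGFP- cells 0 members were called by edgeR (1 at an unadjusted p under 0.05, 0 in DESeq2), where 0.178% of 10683 genes were called, and 27 of 41 log2 fold changes were above 0. Of the 10683 genes, 5258 had a log2 fold change above 0 and 666 an unadjusted p under 0.05 in edgeR. The 1 member among these 666 was *Pclaf*, with 37.5 and 52.1 CPM in medLN and 26.4 and 28.2 in MLN (log2 fold change 0.66, SE 0.136, edgeR adjusted p = 0.12). With the mouse as replicate block *Pclaf* passed (edgeR adjusted p = 0.0021). Without the IL-4eGFP- sample of medLN 1, MLN 1 or MLN 2 the number of members called was 4, 1 or 2. The gate effect was not shown to differ between the nodes, since the interaction called 0 members (4 at an unadjusted p under 0.05 in edgeR, 0 in DESeq2), where 0.156% of 11537 genes were called. Of the 11537 genes, 807 had an unadjusted p under 0.05 in edgeR. The widest interaction among the members was that of *Cdc45*, with a log2 difference of 0.68 (SE 0.291, edgeR adjusted p = 0.69).

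Other genes of the replication pathway (63 origin, polymerase, repair and E2F genes, chosen as a list with earlier results known) were read beside the members. Between lung and MLN, 13 were higher and 4 lower in lung (7 called by DESeq2), a share of 27.0% that was below the 31.0% of all genes. The origin subunit *Orc1* was higher (log2 fold change 2.00, SE 0.302, edgeR adjusted p = 0.001), as were the repressor *E2f7* (1.18) and the activator *E2f2* (0.93). The deoxycytidine kinase *Dck* (-1.19), the mismatch repair gene *Msh6* (-0.95) and the single strand binding *Rpa1* (-0.89) were lower. Between the gates, 47 of the 63 were higher and 7 lower in IL-4eGFP+ cells (85.7%, against 62.8% of all genes), led by *E2f8* (2.85), *Dna2* (2.74) and *Exo1* (2.63) and, on the lower side, *Orc5* (-0.43), *Pole2* (-0.40) and *Orc4* (-0.29). In Mki67+ cells the gates differed for 4 of them (6.35%, against 11.2% of all genes), of which *Nasp*, a histone chaperone, was higher (0.39) and *E2f7* (-0.88), *Orc4* (-0.58) and *Dck* (-0.45) were lower. The 19 G2/M genes other than *Mki67* had a median log2 fold change of 2.62 between the gates, all called higher, and of 0.46 between lung and MLN, with 4 called higher and 0 lower (10 called with the mouse as replicate block, 1 by DESeq2).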

How the data were processed

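The authors made the deposited UMI counts (1 value per gene and barcode) with Cell Ranger (3.0.1 for lung and MLN after demultiplexing with 2.1.1, 6.1.2 for medLN and MLN, per the methods and the submitters' processing notes), aligned to mm10 (GRCm38), without normalization. Whether reads were thinned when the 2 libraries of run 2 were aggregated is not stated in the paper or labels. The gate of a run 2 cell was read from the number after its barcode. The members and gene lists were chosen with earlier results of these data known.

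Barcodes entered with more than 500 UMIs and 500 genes, a mitochondrial share below 7%, log genes over log UMIs above 0.8 and, in run 1, a productive TCRα and TCRβ contig. No doublet caller was run on run 1; in run 2, hashtag doublets (1256 IL-4eGFP+, 1280 IL-4eGFP-) and negatives (52 and 70) were removed with HTODemux (Seurat 5.3.0, quantile 0.99). UMIs were summed per gene and sample, TCR genes left out, and tested with edgeR 4.0.16 (filterByExpr, TMM, quasi-likelihood, Benjamini-Hochberg over all genes). All 41 members passed filterByExpr in each of the 8 comparisons. Each SE was derived from the log2 fold change and the F statistic of its edgeR test, and is not a counting error. The code was tested on simulated data. Within a run, same-numbered samples came from the same mouse, and their deviations from the group means correlated at -0.04 to 0.24 over genes. Alternatives were DESeq2 1.42.0, its size factors in edgeR, no filter, each sample left out, mouse or hashtag sample as replicate block, cells thinned to 2000 UMIs, other TCR criteria and at least 2 Mki67 UMIs. All members are described by role. Values per sample were given for members of a set covering every role and, for each comparison, the called members with the largest changes (up to 5 per direction) and the member with the smallest. *Mcm3*, *Pole*, *Rfc2* and *Chaf1b* were given with more values than that because a result turned on them.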

Additional observations from a re-analysis of the deposited data

Results flagged for a closer look

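Of 170 groups of 4 hashtag samples, 10 had a sample far from the other 3, where chance alone would mark about 1 in 20. Of these, 5 were the medLN 2 IL-4eGFP- sample over all cells, which was high for *Mcm3* (51.8 CPM, the others 42.4 to 43.5), *Gins2* (10.3, the others 6.47 to 6.94), *Pole* (7.55, the others 4.65 to 5.07), *Rrm1* (44.8, the others 30.1 to 32.0) and *Dut* (105 CPM, the others 87.8 to 88.6). This sample also had the highest share of Mki67+ cells of its gate (2.49%). Over all IL-4eGFP+ cells the MLN 1 sample was low for *Mcm10* (10.5 CPM, the others 13.3 to 13.7) and *Ccne2* (7.60, the others 11.1 to 11.7). In Mki67+ cells *Prim1* was low in MLN 2 IL-4eGFP+ (69.4 CPM, the others 80.7 to 81.9), *Mcm7* was low in medLN 1 IL-4eGFP- (151 CPM, the others 215 to 224) and *Rfc2* was high in MLN 1 IL-4eGFP- (164 CPM, the others 126 to 131). What sets these samples apart was not tested.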

How the results depend on the processing

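The 9 members called between lung and MLN over all cells became 4 with DESeq2, 12 with the mouse as replicate block and 4 to 12 when 1 library was left out. The 1 member called in Mki67+ cells became 0 with DESeq2, 0 with thinned cells, 0 with at least 2 Mki67 UMIs and 0 to 1 when 1 library was left out, and 2 with the mouse as replicate block. The 41 called between the gates stayed between 33 and 41. The 2 called in Mki67+ cells became 1 with DESeq2, with thinned cells, with at least 2 Mki67 UMIs and with the hashtag sample as replicate block, and 1 to 3 when 1 sample was left out, and with thinned cells that 1 was not *Dut*. For medLN against MLN the count of 0 became 1 (IL-4eGFP- cells, replicate block), 3 (IL-4eGFP+ Mki67+ cells, no filter), 0 to 1 (IL-4eGFP+ cells) and 0 to 4 (IL-4eGFP- cells) when 1 sample was left out, and the interaction stayed at 0. The block changed no other of these counts. For single genes, *Ung* (-0.075) and *Chaf1b* (-0.24) turned their sign between the gates with thinned cells. The causes were not tested. Of 533 values for members called between the gates, 522 kept their call, and of 99 between lung and MLN 74. In Mki67+ cells 16 of 27 such values kept their call between the gates and 5 of 11 between lung and MLN. Depth limits the rarest members, of which *Mcm10* had 8 UMIs in the least covered sample. Thinning moved the share of cells with a Mki67 UMI beyond its counting interval in 10 of 12 samples and the summed level of the members in 12 of 12.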

Other observations

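Mki67+ cells of the IL-4eGFP+ node samples were split, after the data had been seen, by a UMI of the mitotic cyclins *Ccnb1* or *Ccnb2*, which 64.8% to 72.2% of them had. The summed level of the 41 genes was 6513 to 7182 CPM in cells with a cyclin B UMI and 3509 to 6628 CPM in cells without, a ratio of 1.06 to 1.91 in the 4 samples. The members did not share this ratio. *Pclaf* (median ratio 2.59, range 1.59 to 2.77), *Rrm2* (2.34, 1.43 to 3.23) and *Rrm1* (2.31, 1.48 to 3.27) were higher in cells with a cyclin B UMI in 4 of 4 samples. *Ung* (0.754, 0.464 to 1.22) and *E2f1* (0.837, 0.579 to 1.75) were lower in 3 of 4, and *Mcm6* had 1.04 (0.992 to 1.24). The 4 samples of run 1 had summed ratios of 1.80 to 3.22, with *Pclaf* again at 2.65 to 7.54, but *Ung* had 2.05, 0.982, 1.04 and 1.82 in lung 1, lung 2, MLN 1 and MLN 2, so that its lower level was not seen in run 1. In the IL-4eGFP- samples, with 31 to 52 Mki67+ cells each, the summed ratio was 1.02 to 1.39 and *Ung* had 0.195 to 0.992. *Top2a* and *Cdc20*, which are no members, had median ratios of 3.58 (4 samples) and 20.4 (3 samples with enough UMIs). In the IL-4eGFP+ node samples cells with a cyclin B UMI were deeper, with a median of 12550 to 14170 UMIs against 4242 to 5437, and the part of depth in this split was not tested.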
